A study of Rattus norvegicus with 12 samples.

Results

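The NR4A receptors and the genes that start or limit signalling through the transcription factor CREB were followed by name in RNA sequencing of the rat paraventricular region. The 7 genes were Nr4a1, Nr4a2, Nr4a3, Sik1, Crem, Crtc1 and Crtc2. They were chosen by symbol for their place in the cyclic AMP (cAMP) pathway to corticotropin-releasing hormone (Crh). The rule uses symbols only, but the genes were proposed with earlier results of these data known. All 7 were found among the 17310 gene identifiers of the tables, and all 7 were among the 12856 genes with enough fragments to be tested.

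The tissue was hypothalamus containing the paraventricular nucleus (PVH), dissected from male wild-type Wistar rats aged 12 weeks. There were 12 libraries in 6 groups of 2. Sham rats had a mock adrenalectomy (sham-ADX in the labels). High Cort rats had 12 days of high corticosterone, the main glucocorticoid of the rat. ADX rats were sampled 7 days after the adrenal glands were removed, and supplemented ADX rats were adrenalectomised and given corticosterone (ADX + Cort suppl), with no duration stated. The last groups are labelled acute Cort (1), at 1 h and at 3 h. The labels do not say whether these acutely treated rats were intact or adrenalectomised, what (1) stands for, or what a vehicle-treated rat of that experiment would show. They also do not say whether a library is 1 rat or a pool, so the p-values measure the spread between libraries, which may be in part technical.

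NR4A proteins are orphan nuclear receptors without a known hormone ligand, and their genes are immediate early genes that many cells switch on within an hour of a stimulus. In PVH neurons cAMP and calcium signals lead to phosphorylated CREB and to CRTC coactivators in the nucleus, and both act on the promoter of Crh. The pathway limits itself: the kinase SIK1 phosphorylates CRTC proteins and keeps them in the cytoplasm, and Crem can give rise to ICER, a short repressor that occupies CREB sites. Nr4a1, Nr4a2, Nr4a3, Sik1 and Crem are themselves known CREB targets, while Crtc1 and Crtc2 encode coactivators that are regulated mainly by where the protein sits in the cell.

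Promoter windows show how the cAMP response element (CRE), the DNA site of CREB, is spread over these genes. Each window runs from 250 bases before an annotated transcription start to 50 bases after it, in RefSeq's annotation of the rat assembly GRCr8, which is a later build than the rn6 of the expression data. At least 1 window was matched for 6 of the 7 genes. Crem has 3 annotated starts with a window, and none was matched for Nr4a3. The 4 windows printed here are those of the genes whose levels are contrasted below, each 5′ to 3′ on the gene's own strand. Nr4a1 is at chr7:134259888-134260187 on the plus strand, Sik1 at chr20:9958597-9958896 on the minus strand, Nr4a2 at chr3:62104838-62105137 on the minus strand and the third start of Crem at chr17:58985240-58985539 on the plus strand. Capitals mark each CRE core, CGTCA on either strand, which is the conserved arm of the element.
Nr4a1: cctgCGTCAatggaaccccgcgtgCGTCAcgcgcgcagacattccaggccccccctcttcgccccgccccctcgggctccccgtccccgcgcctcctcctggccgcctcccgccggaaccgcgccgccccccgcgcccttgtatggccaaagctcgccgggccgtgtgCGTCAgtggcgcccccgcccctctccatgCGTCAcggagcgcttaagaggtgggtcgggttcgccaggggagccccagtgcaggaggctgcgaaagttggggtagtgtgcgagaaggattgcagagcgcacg
Sik1: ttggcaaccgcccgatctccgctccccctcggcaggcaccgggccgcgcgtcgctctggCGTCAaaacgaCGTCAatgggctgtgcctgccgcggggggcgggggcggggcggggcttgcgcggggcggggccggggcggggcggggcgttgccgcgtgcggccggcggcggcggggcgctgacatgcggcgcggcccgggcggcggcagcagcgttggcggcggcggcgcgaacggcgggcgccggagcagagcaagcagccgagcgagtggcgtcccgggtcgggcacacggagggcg
Nr4a2: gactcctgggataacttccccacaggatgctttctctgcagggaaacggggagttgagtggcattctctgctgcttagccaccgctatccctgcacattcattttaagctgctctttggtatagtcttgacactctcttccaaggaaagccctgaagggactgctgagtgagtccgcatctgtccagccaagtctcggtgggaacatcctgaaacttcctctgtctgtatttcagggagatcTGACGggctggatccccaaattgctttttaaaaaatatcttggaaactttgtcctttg
Crem, start 3: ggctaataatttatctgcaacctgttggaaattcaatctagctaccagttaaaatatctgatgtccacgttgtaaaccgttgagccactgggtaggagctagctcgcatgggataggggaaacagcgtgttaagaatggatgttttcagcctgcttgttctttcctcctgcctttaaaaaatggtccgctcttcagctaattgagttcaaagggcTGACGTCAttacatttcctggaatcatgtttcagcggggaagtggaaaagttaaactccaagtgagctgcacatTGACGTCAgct

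The Nr4a1 window holds 4 cores, at -246, -226, -82 and -53 bases from the start, counting the first transcribed base as 0. Of all 33469 windows in the table, 0.236% hold at least 4 and 21.2% hold at least 1. The Sik1 window holds 2, at -191 and -180, a number that 4.96% of all windows reach, and the Nr4a2 window holds 1, at -8. The full CRE, the palindrome TGACGTCA, is made of a pair of overlapping cores and occurs at least once in 1.83% of windows. Crem start 3 holds 2 full CREs, at -35 and 39, a number found in 0.0418% of windows, and Crem start 2, at chr17:58984547-58984846, holds 1 at -56. Crem start 1 has 2 cores and no full CRE. Of the coactivator genes, Crtc2 has 1 core at -95, the same number as Nr4a2, and Crtc1 has none, like most windows in the table.

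The NR4A monomer site AAAGGTCA (NBRE) is in none of these windows and in 1.43% of all windows, and the palindromic glucocorticoid response element (AGAACA, any 3 bases, TGTTCT) is in none of them and in 0.0149% of all, both strands searched. The windows of Nr4a1 and Sik1 are rich in G and C, at 72.3% and 81.3%, against a median of 51.7% over all windows and 48.7% for Nr4a2. A match is a run of letters and not a measured binding site.

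**Figure D1:**
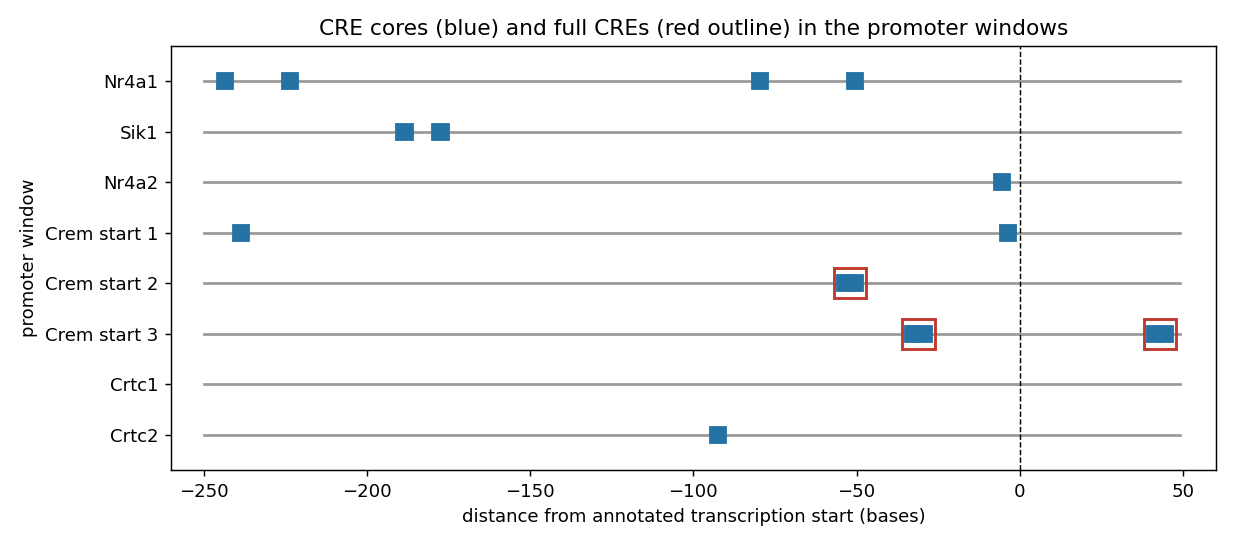
Position of CRE cores (blue blocks) and full CREs (red outlines) in each promoter window; the horizontal axis is the distance from the annotated transcription start in bases, with the start at 0. Nr4a1 has 4 cores, Crem start 3 has 2 full CREs, and the Crtc1 window is empty.

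The libraries held between 17674159 and 36249006 fragments, with the shallowest in 1 h acute replicate 2. Levels are given as CPM, a gene's count brought to a common depth after TMM scaling, which compares 1 gene between libraries. Behind them stand between 141 fragments (Nr4a2) and 3047 fragments (Crtc1) in a library. All 14 PVH neuron genes on the list used were detected in every library. So was every striatum, habenula and cortex or hippocampus marker found among the gene identifiers, so detection does not test the PVH label. Markers of thalamus, which lies above the hypothalamus, were detected as well, and their sum over 16 genes was 2645 and 3454 CPM for sham, 3274 and 3385 for high Cort, 2034 and 2308 for ADX, 2172 and 2247 for supplemented ADX, 1853 and 1179 for the 1 h libraries and 1863 and 1735 for the 3 h libraries. All 4 acute libraries were thus below all 8 others in this sum, those of supplemented ADX in the same run included. In tissue of mixed cells, fewer cells of a type and less RNA per cell cannot be told apart.

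Levels of different genes can be compared only per transcript length, and the deposited FPKM values, which correct for length and for depth, do that within 1 of the authors' processing runs. Run A held sham, high Cort and ADX, and run B supplemented ADX and both acute groups. In sham rats Crtc1 was the most abundant of the 7, at an FPKM of 50.4 ± 0.864 (SD, n = 2), followed by Crtc2 at 15.2 ± 0.177 and Sik1 at 7.77 ± 0.00271. Nr4a1 at 4.27 ± 0.341 and Crem at 4.25 ± 0.590 did not differ beyond their spread. Nr4a2 followed at 3.37 ± 0.480, and Nr4a3 was the lowest, at 1.74 ± 0.499, with no overlap between the libraries of these neighbours. In the 1 h acute rats, measured in run B, the order within the NR4A family differed: Nr4a1 stood at 8.47 ± 0.535, Nr4a3 at 5.89 ± 0.469 and Nr4a2 at 3.28 ± 0.0947. Nr4a3 was thus the lowest NR4A gene in sham and ranked above Nr4a2 at 1 h.

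Nr4a1 (also called Nur77) and Nr4a3 (Nor1) were highest in the 1 h acute libraries, and Nr4a2 (Nurr1) was level across the acute groups. Nr4a1 was at 18.2 and 20.0 CPM in the 1 h acute libraries. Sham values were 10.4 and 9.33, high Cort values 9.71 and 12.0, and ADX values 10.2 and 6.71. Supplemented ADX values were 13.4 and 13.0, and 3 h acute values 8.63 and 9.35. Both 1 h libraries lay above all 10 others, and both 3 h libraries lay below those of supplemented ADX and overlapped those of sham.

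Nr4a3 was at 23.2 and 26.0 CPM in the 1 h acute libraries. Sham values were 5.88 and 8.93, high Cort values 9.71 and 11.2, ADX values 12.9 and 8.40, supplemented ADX values 9.11 and 9.98 and 3 h acute values 9.21 and 9.08. The lowest 1 h value was far above the highest value elsewhere, 12.9 in ADX replicate 1, and the other 5 groups overlapped or lay side by side. Over all libraries Nr4a3 had the widest range of the 7 genes, 4.41-fold from lowest to highest, against 2.97-fold for Nr4a1 and 1.93-fold for Nr4a2.

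Nr4a2 was at 7.50 and 7.82 CPM in the 1 h acute libraries, just above those of supplemented ADX and within those of 3 h acute. These were 7.50 and 7.10 (supplemented ADX) and 8.05 and 7.03 (3 h acute). In run A it was at 8.86 and 7.28 (sham), 8.50 and 7.55 (high Cort) and 11.9 and 6.14 (ADX). The ADX libraries thus held both the highest and the lowest Nr4a2 value of the series. ADX replicate 2 was also the lowest of all 12 libraries for Nr4a1 and Sik1, and it was the lowest for the immediate early genes Fos, at 5.35 CPM, and Junb, at 6.62.

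**Figure D2:**
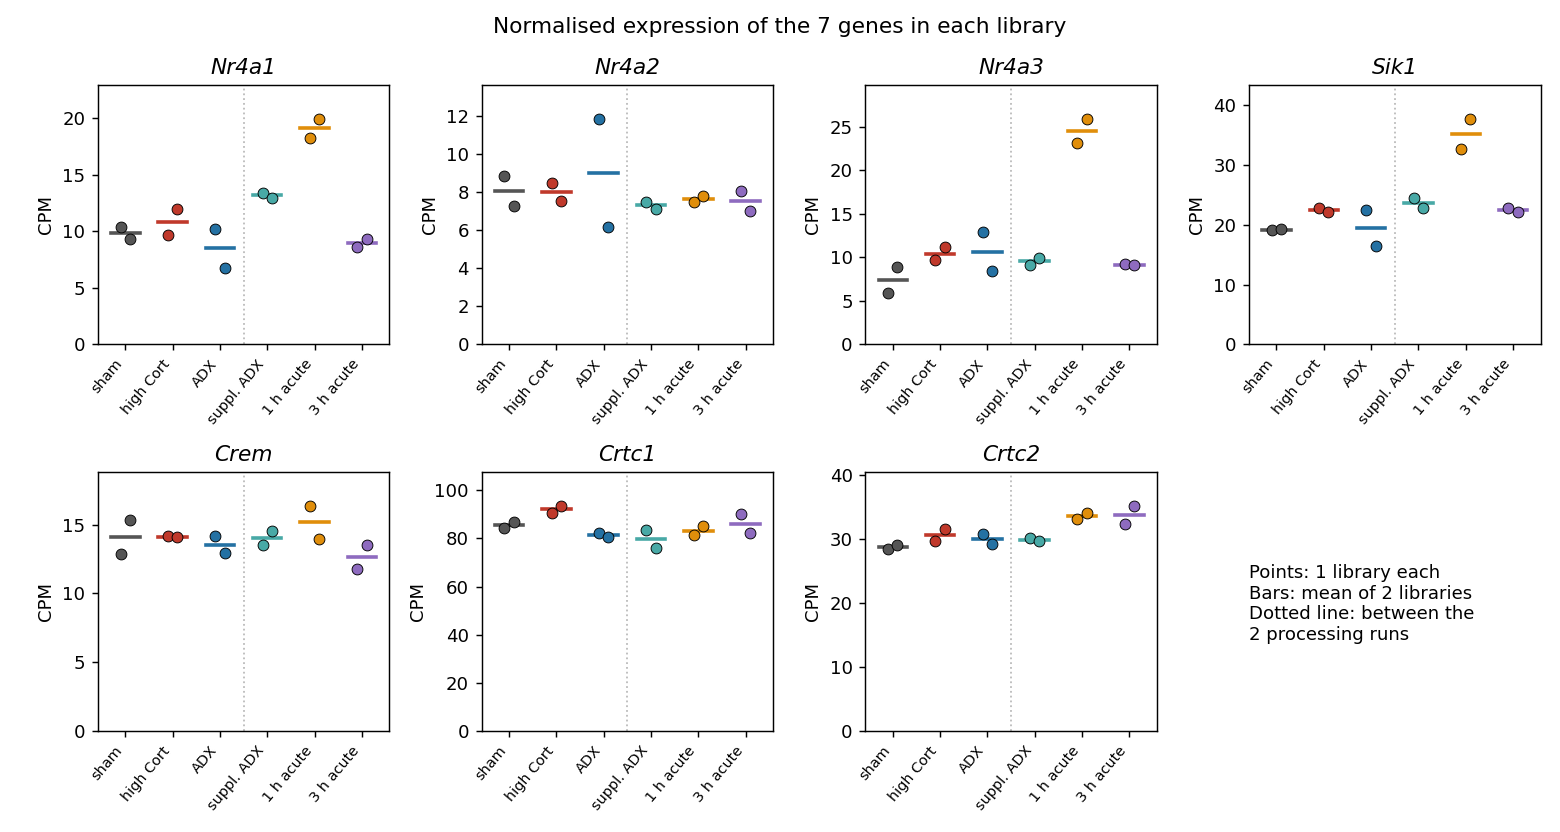
Expression of the 7 genes in CPM (vertical axes, starting at 0) in each of the 12 libraries; points are single libraries, bars the mean of 2, and the dotted line separates the authors' processing runs. Nr4a1, Nr4a3 and Sik1 are highest in both 1 h acute libraries (Nr4a3 at 23.2 and 26.0 CPM), while Nr4a2, Crem and Crtc1 show no such step.

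Of the feedback genes, Sik1 followed Nr4a1 and Nr4a3, and Crem hardly did. Sik1 was at 32.7 and 37.8 CPM in 1 h acute, against sham values of 19.1 and 19.2, high Cort values of 22.8 and 22.1, ADX values of 22.4 and 16.4, supplemented ADX values of 24.5 and 22.8 and 3 h acute values of 22.8 and 22.2. The 1 h libraries stood clear of all others, whose highest value was 24.5.

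Crem was at 16.4 and 14.0 CPM at 1 h, against sham values of 12.8 and 15.3, high Cort values of 14.2 and 14.1, ADX values of 14.2 and 12.9, supplemented ADX values of 13.5 and 14.5 and 3 h acute values of 11.8 and 13.5. The 1 h libraries overlapped those of sham, high Cort, ADX and supplemented ADX, and the whole range was 1.39-fold. Counts per gene do not separate ICER from full-length Crem. The FPKM given per scaled fragment falls as the transcript length assigned to a gene grows; for Crem, relative to Nr4a1 in the same library, this ratio lay between 0.684 and 0.713 in the 12 libraries, with 0.701 and 0.712 at 1 h and 0.697 and 0.694 under supplementation. By this measure the assigned length of Crem was nearly the same in every library.

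The coactivator genes varied least. Crtc1 ranged 1.23-fold over the series, from 75.9 CPM in supplemented ADX replicate 2 to 93.6 in high Cort replicate 2. Sham values were 84.4 and 87.0, high Cort values 90.4 and 93.6, ADX values 82.1 and 80.6, supplemented ADX values 83.4 and 75.9, 1 h acute values 81.3 and 85.1 and 3 h acute values 90.1 and 82.2. The high Cort libraries were the top 2 and did not overlap those of sham or ADX.

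Crtc2 ranged 1.24-fold. Sham values were 28.4 and 29.0 CPM, high Cort values 29.7 and 31.5, ADX values 30.7 and 29.2, supplemented ADX values 30.1 and 29.6, 1 h acute values 33.1 and 34.0 and 3 h acute values 32.3 and 35.2. All 4 acute libraries lay above the other 8, at 3 h as at 1 h, whereas Nr4a1, Nr4a3 and Sik1 were high at 1 h and not at 3 h.

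Sustained changes of corticosterone left the 7 genes without a called difference. Of the 7, 0 were called in high Cort against sham (edgeR quasi-likelihood test, Benjamini-Hochberg adjusted p under 0.05 over all genes tested), where 0.871% of all genes were called, and 0 had an unadjusted p under 0.05, as 8.36% of all genes had. In ADX against sham 0 were called, against 0.233% of all genes, and 1 had an unadjusted p under 0.05 (12.8% of all genes): Nr4a3, higher by 0.52 ± 0.23 (SE) on the log2 scale, with an adjusted p of 0.376 in edgeR. Limma on the FPKM values called 0 of the 7 in both comparisons. DESeq2 called 0 of the 7 in high Cort against sham and, in ADX against sham, 0 of 2 (Crtc1 and Crtc2), giving no adjusted p for the other 5. In the same libraries Crh, the gene that the adrenal hormone represses in PVH neurons, was at 10.5 and 13.5 CPM (sham), 2.35 and 4.16 (high Cort) and 25.6 and 26.9 (ADX). Crh fell by 1.85 ± 0.27 on the log2 scale in high Cort against sham, 3.61-fold, with an edgeR adjusted p of 0.017. In ADX against sham Crh was higher by 1.13 ± 0.20, 2.18-fold, and was not called either (edgeR adjusted p 0.0695).

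The contrast between the extremes of hormone, high Cort against ADX, called 5.77% of all genes and 0 of the 7 by edgeR, with 2 of the 7 at an unadjusted p under 0.05 (20.9% of all genes); DESeq2 called 0. The nearest was Crtc1, higher in high Cort by 0.18 ± 0.06 on the log2 scale (1.13-fold, 95% interval 0.06 to 0.30, adjusted p 0.0746). Nr4a1 was next, higher by 0.36 ± 0.16 with an adjusted p of 0.237 by edgeR. In a fit of the 4 compared libraries alone Crtc1 was called (adjusted p 0.0218), among 1653 genes in all. Of the other genes, Nr4a1, Sik1 and Nr4a2 turned on the ADX libraries. Without ADX replicate 1, Nr4a1 was higher in high Cort by 0.69 (adjusted p 0.025) and Sik1 by 0.44 (adjusted p 0.0426), and without ADX replicate 2, Nr4a2 was lower by -0.58 on the log2 scale (adjusted p 0.0488 by edgeR).

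Supplemented ADX against ADX asked what replacing the hormone did, across the authors' 2 processing runs. Here 0.0311% of all genes were called and 0 of the 7 by edgeR or DESeq2, with 2 of the 7 at an unadjusted p under 0.05 (4.05% of all genes). Nr4a1 was higher in supplemented ADX by 0.63 ± 0.16 on the log2 scale (1.55-fold, edgeR adjusted p 0.658), in both libraries. Without ADX replicate 1 this was 0.98, with an adjusted p of 0.042. Supplemented ADX against sham called 0 of the 7 by edgeR and 0.0156% of all genes, again with 2 at an unadjusted p under 0.05 (10% of all genes): Nr4a1, higher by 0.42 ± 0.16, and Sik1, higher by 0.30 ± 0.12 (edgeR adjusted p 0.405 and 0.418). DESeq2 gave an adjusted p only for Crtc1 and Crtc2 here, and called neither.

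The acute groups can be compared with supplemented ADX within 1 processing run. At 1 h, Nr4a3 was 2.56-fold higher than in supplemented ADX, a log2 difference of 1.36 ± 0.20 (95% interval 0.91 to 1.81) with an adjusted p of 0.065, and it ranked 14th by p among all genes. Sik1 was 1.48-fold higher, at 0.57 ± 0.11 with an adjusted p of 0.0983, and Nr4a1 was 1.44-fold higher, at 0.53 ± 0.15 with an adjusted p of 0.177. So 0 of the 7 passed the adjusted threshold by edgeR, in a comparison that called 0.0467% of all genes, 6 in number. By the unadjusted p, 4 of the 7 were under 0.05, against 14.7% of all genes. In 5 of the 7 both 1 h libraries were above both supplemented ADX libraries, against 23% of all genes.

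The remaining 4 genes differed less at 1 h. Crtc2 was higher by 0.17 ± 0.06 (adjusted p 0.252) and Crem by 0.13 ± 0.10, with a 95% interval of -0.09 to 0.35. For Nr4a2 the log2 difference was 0.06 ± 0.27, with an interval of -0.55 to 0.67 that spans the fitted difference of Nr4a1, and for Crtc1 it was 0.06 ± 0.06. The median over the 7 was 0.17, and that over all genes 0.

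Which genes passed at 1 h depended on the test. DESeq2 called 1 of the 7, Sik1 (adjusted p 0.00469), and gave no adjusted p for the 3 NR4A genes and Crem. It called 76 genes in all, against 6 by edgeR. A fit of the 4 compared libraries alone called Nr4a3 (adjusted p 0.00111), as did limma on log2(FPKM + 1) (adjusted p 0.0221). These 2 settings called 4 and 6 genes in all. With the replicate number added to the fit, edgeR called 0 of the 7, with an adjusted p of 0.145 for both Nr4a3 and Sik1. Without 1 h acute replicate 1, Nr4a3 was higher by 1.44 and Sik1 by 0.68 on the log2 scale. Without 1 h acute replicate 2, these differences were 1.28 and 0.47.

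By 3 h the levels stood back near those of the other groups, and for Nr4a1 below those of supplemented ADX. Against 1 h, Nr4a1 was lower at 3 h by a log2 difference of -1.08 ± 0.16 (2.11-fold, 95% interval -1.44 to -0.72, edgeR adjusted p 0.0657), the 6th smallest p of all genes. Nr4a3 was lower by -1.42 ± 0.21 (2.67-fold, adjusted p 0.103) and Sik1 by -0.64 ± 0.12 (1.55-fold, adjusted p 0.114). Crem was lower by -0.27 ± 0.11 with an adjusted p of 0.391, the one contrast within this run in which its interval, -0.51 to -0.04, left out 0. None of the 7, that is 0, passed the adjusted threshold in edgeR, where 0.0233% of all genes did, while 4 of 7 had an unadjusted p under 0.05, as had 10.6% of all genes. Both 3 h libraries were below both 1 h libraries in 4 of the 7, against 19.4% of all genes.

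For this decline the calls depended on the tool and on the fit. DESeq2 called 3 of the 7, namely Nr4a3 (adjusted p 1.13e-09), Nr4a1 (2.49e-06) and Sik1 (0.000989), and 24 genes in all. An edgeR fit of the 4 libraries alone gave the same 3, at 0.000109, 0.00154 and 0.0261, and called 9 genes in all. Limma on log2(FPKM + 1) called Nr4a1 and Nr4a3, and 10 genes in all. With the replicate number added to the fit, edgeR called none of Nr4a1, Nr4a3 and Sik1 (adjusted p 0.139, 0.196 and 0.157). Without 1 h acute replicate 1, the log2 difference of Sik1 was -0.74. Crtc2 did not decline: its difference between 3 h and 1 h was 0.01 ± 0.06, with a 95% interval of -0.13 to 0.15.

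Against supplemented ADX, the 3 h libraries had lower Nr4a1, by -0.55 ± 0.17 (1.47-fold, adjusted p 0.24), and higher Crtc2, by 0.18 ± 0.06 (adjusted p 0.282). Here edgeR called 0 of the 7 and 0.00778% of all genes, with 2 of the 7 at an unadjusted p under 0.05 (12.5% of all genes), and DESeq2 called 0. In the fit of these 4 libraries alone Nr4a1 was called, with an adjusted p of 0.0084, among 154 genes in all. Nr4a3 and Sik1 were at -0.06 ± 0.23 and -0.07 ± 0.12, so of the 3 genes that were high at 1 h, only Nr4a1 had both 3 h libraries below both supplemented ADX libraries.

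**Figure D3:**
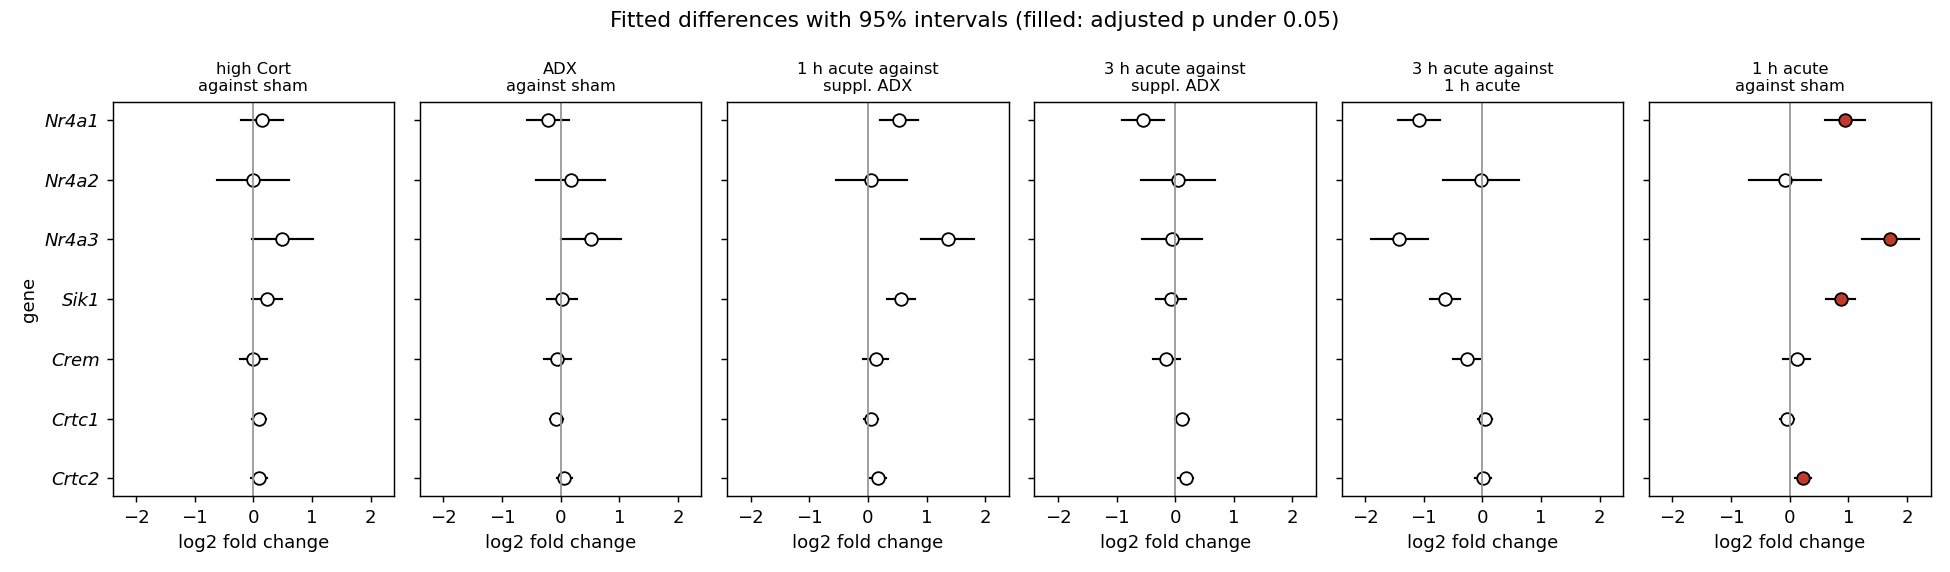
Fitted log2 fold changes (horizontal axes) of the 7 genes in 6 comparisons, with 95% intervals; filled points have an adjusted p under 0.05 by edgeR. Intervals of Nr4a1, Nr4a3 and Sik1 lie above 0 at 1 h against supplemented ADX and below 0 at 3 h against 1 h, and 4 genes are called at 1 h against sham.

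Against sham, which lies in run A and so in the other processing run, 4 of the 7 genes rose at 1 h. Nr4a3 rose 3.28-fold, by 1.71 ± 0.21 on the log2 scale (edgeR adjusted p 0.00345). Nr4a1 rose 1.93-fold, by 0.95 ± 0.16 (adjusted p 0.00513), Sik1 rose 1.82-fold, by 0.87 ± 0.12 (adjusted p 0.0024), and Crtc2 rose 1.17-fold, by 0.23 ± 0.06 (adjusted p 0.0341). Each of the 4 was higher in 2 of 2 libraries than in both sham libraries. As these are the genes already called, that separation adds no support of its own. The share of all genes separated in this way is not given for 1 h against sham. At 1 h against supplemented ADX it was 23%. Of all genes, 12.8% were called at 1 h against sham, 5.56% as higher. Nr4a2, at -0.08 ± 0.27, Crem, at 0.12 ± 0.11, and Crtc1, at -0.05 ± 0.06, were not called. The call of Crtc2 at 1 h was not shared by DESeq2 (adjusted p 0.0963), which called the other 3, and it ended without sham replicate 1 (0.104), sham replicate 2 (0.132) or 1 h acute replicate 2 (0.17).

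At 3 h only Crtc2 remained above sham by the test, higher by 0.24 ± 0.07 on the log2 scale (1.18-fold, edgeR adjusted p 0.0392), in a comparison that called 7.98% of all genes and 3.41% as higher. It was not called by DESeq2, which called 0 of the 7 there, nor in the fit of the 4 libraries alone, with the replicate block or with the thalamus covariate described next. The call of Crtc2 also ended without sham replicate 1 (adjusted p 0.102), without sham replicate 2 (0.151) and without 3 h acute replicate 2 (0.279). Nr4a1 at -0.13 ± 0.18 and Nr4a3 at 0.30 ± 0.24 were not distinguishable from sham at this depth and number of libraries.

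The thalamus markers moved with the comparisons against sham: 9 of 16 were called lower at 1 h and 1 of 16 at 3 h. Of all genes, 7.2% and 4.57% were called lower there. They were also lower within run B: against supplemented ADX, 15 of 16 had both libraries lower at 1 h (median log2 difference -0.60, 7 at an unadjusted p under 0.05) and 15 of 16 at 3 h (median -0.40, 1 at an unadjusted p under 0.05), with 0 called by edgeR. With the mean log2 CPM of these markers as a covariate, 0 of the 7 genes were called at 1 h against sham by edgeR, and 4 genes in all were; Nr4a3 was then higher by 1.67 ± 0.41 (adjusted p 0.784), Nr4a1 by 0.65 ± 0.26 and Sik1 by 0.58 ± 0.19. The fit of the 4 libraries alone called 2 of the 7, Nr4a1 and Sik1, among 23 genes in all. Without sham replicate 2, 2 of the 7 were called, and Nr4a1 was higher by 0.88 with an adjusted p of 0.0585. Within run B the same covariate gave Nr4a1 at 0.34 ± 0.19, Nr4a3 at 1.33 ± 0.30 and Sik1 at 0.39 ± 0.14 for 1 h against supplemented ADX. None of these was called (edgeR adjusted p 0.983, 0.922 and 0.983), and 1 gene in all was. For 3 h against 1 h it gave Nr4a1 at -1.02 ± 0.16, Nr4a3 at -1.41 ± 0.24 and Sik1 at -0.57 ± 0.11. These were not called either (edgeR adjusted p 0.0528, 0.147 and 0.0859). Blood cell markers, 5 genes, summed to 34.4 and 28.3 CPM at 1 h and 55.7 and 68.6 CPM at 3 h, with 1 of 5 called higher at 3 h, and their part in the decline from 1 h to 3 h was not tested.

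The genes that most resembled the members over the 12 libraries included other immediate early genes for Nr4a1 and Sik1. By Pearson correlation of log2 CPM among 11252 genes, Fos was nearest to Nr4a1 (r = 0.962), ahead of Limd1 (0.905), Ddx31 (0.900) and Egr1 (0.889). For Sik1 the nearest were Stard7 (0.913), Fos (0.908) and Uncx (0.904), with Junb the fifth (0.887). Nr4a3 was nearest to Kmt2e (0.931), Zfp275 and Rev3l (both 0.925), none of them an immediate early gene, while Spry4, an inhibitor of growth factor signalling, was the fifth (0.915). Nr4a2 was nearest to Akr1b10 (0.884), Crem to Hnrnpd (0.897), Crtc1 to Wnk2 (0.962) and Crtc2 to Leng8 (0.936). These are descriptions over libraries that share groups, and for Nr4a1, Nr4a3 and Sik1 the 1 h libraries are the highest points of each.

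Among the members, Nr4a1 and Sik1 had r = 0.91, Nr4a3 and Sik1 0.89, and Nr4a1 and Nr4a3 0.78. Nr4a2 had no r above 0.16 with any of the others. In ADX replicate 1 Nr4a2 was high, as was Nr4a3 at 12.9 CPM, while Nr4a1 was at 10.2 CPM, near its sham level. All NR4A genes were higher in that library than in ADX replicate 2. At 1 h Nr4a2 stayed at its usual level while both of its relatives were at their highest.

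Fos and Egr1, transcription factors of the same early response, and the clock gene Per1 give the scale of the 1 h values. Fos was at 21.6 and 24.9 CPM at 1 h, at 10.6 and 12.4 in supplemented ADX and at 7.86 and 7.66 at 3 h, and Egr1 at 39.4 and 45.6, 22.9 and 20.2, and 16.5 and 17.0. Against supplemented ADX, Fos was 2.01-fold higher at 1 h (adjusted p 0.251) and Egr1 1.96-fold (adjusted p 0.165), beside the 2.56-fold of Nr4a3. Junb was 1.62-fold higher, with an adjusted p of 0.065. Per1, which is induced by both CREB and the glucocorticoid receptor, rose 1.71-fold with an edgeR adjusted p of 0.00174. Against 1 h, Per1 fell at 3 h by 0.74 ± 0.08 on the log2 scale (edgeR adjusted p 0.00309). Other glucocorticoid-responsive genes were not called at 1 h against supplemented ADX: Fkbp5 (-0.13 ± 0.09), Tsc22d3 (0.16 ± 0.08) and Sgk1 (0.26 ± 0.13). Of 23 tested genes listed as glucocorticoid-induced, 1 was called higher there and 0 lower, with a median log2 difference of 0. Of all genes, 0.0467% were called there. Per1 was also high in both high Cort libraries, at 84.9 and 80.9 CPM against 40.2 and 48.7 in sham. In high Cort Nr4a1 overlapped sham. Nr4a3, at 9.71 and 11.2 CPM, lay above both sham libraries there, by 0.49 ± 0.23 on the log2 scale (edgeR adjusted p 0.638). It overlapped ADX and supplemented ADX.

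**Figure D4:**
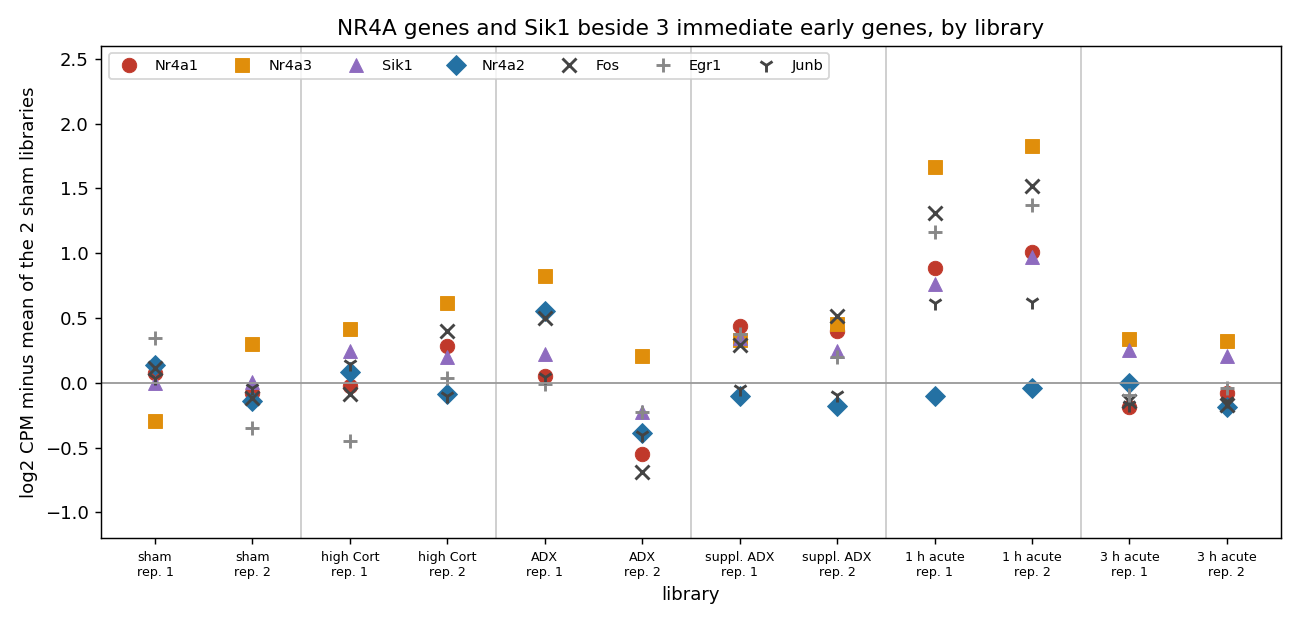
log2 CPM of Nr4a1, Nr4a2, Nr4a3, Sik1, Fos, Egr1 and Junb in each of the 12 libraries (horizontal axis), as the difference from the mean of the 2 sham libraries (vertical axis). All but Nr4a2 are at their highest in both 1 h acute libraries, Nr4a2 is near 0 there, and ADX replicate 2 is below 0 for 6 of the 7.

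Crh itself had no peak at 1 h. It was at 18.6 and 15.2 CPM at 1 h, 20.8 and 23.8 at 3 h and 14.3 and 18.9 in supplemented ADX. At 1 h against supplemented ADX its log2 difference was 0.05 ± 0.20 (edgeR adjusted p 0.939), and at 3 h against 1 h it was 0.38 ± 0.20 (adjusted p 0.55), with the sign opposite to that of Nr4a1, Nr4a3 and Sik1. Against sham, Crh was higher by 0.51 ± 0.21 at 1 h (edgeR adjusted p 0.157) and by 0.89 ± 0.21 at 3 h (adjusted p 0.0357). At 3 h 6 of 14 PVH neuron markers, Crh included, were called higher and 1 lower, where 3.41% of all genes were called higher. In the same comparison 15 of 16 thalamus markers were lower in both libraries (median log2 difference -0.9). The part of tissue content in the Crh difference was not tested.

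Other genes known to respond to neuronal activity and CREB, a list of 40 of which 39 were tested, moved in part with the members. At 1 h against supplemented ADX 1 of 39 rose, Per1, and 0 fell, where 0.0467% of all genes were called in either direction. In 18 of 39 both libraries were higher, against 23% of all genes. At 3 h against 1 h 1 of 39 fell, again Per1, where 0.0233% of all genes were called in either direction. Against sham at 1 h 9 of 39 rose and 3 fell, where 5.56% of all genes rose and 7.2% fell. Those of smallest p were Per1 (log2 difference 0.93 ± 0.08), Fosl2 (0.96 ± 0.17), Junb (0.62 ± 0.13) and Egr1 (1.23 ± 0.23). The median over the list was 0.15 at 1 h against supplemented ADX and 0.12 against sham, with 0 over all genes. In high Cort against sham 2 of 39 rose and 0 fell, where 0.871% of all genes were called in either direction. In ADX against sham edgeR called 0 of 39 and 0.233% of all genes. There 3 were higher and 1 lower at an unadjusted p under 0.05, which 12.8% of all genes reached in either direction.

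Upstream of CREB stand the genes that make, sense and break down cAMP. The 37 tested (39 listed) include adenylyl cyclases, the subunits of protein kinase A and phosphodiesterases. Of these, edgeR called 0 at 1 h or 3 h against supplemented ADX, where it called only 0.0467% and 0.00778% of all genes. At an unadjusted p under 0.05, 2 of 37 were higher and 4 lower at 1 h (14.7% of all genes in either direction). At 3 h 3 were higher and 5 lower (12.5% of all genes). Against sham at 1 h 2 of 37 rose and 8 fell, where 5.56% of all genes rose and 7.2% fell. Those of smallest p were the phosphodiesterases Pde10a (-0.50) and Pde4b (-0.42), the G protein subunit Gnal (-0.29) and the cyclase Adcy8 (-0.32), all log2 differences and all lower. Pde10a is also on the list of striatal markers used, of which 3 of 10, itself included, were called lower in the same comparison and 1, Rgs9, higher by 0.51. In high Cort against ADX 5 of 37 rose and 0 fell, among them Pde10a by 0.30 and Pde4c by 1.10. There 5.77% of all genes were called in either direction.

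Of the CREB family and the kinases, phosphatases and coactivators that control it, 21 of 24 listed genes were tested. Within the acute run edgeR called 0 of them, where it called at most 0.0467% of all genes. At an unadjusted p under 0.05, 1 was higher and 3 lower at 1 h against supplemented ADX, beside 14.7% of all genes in either direction. Against sham at 1 h 1 of 21 rose, the acetyltransferase Crebbp (0.22), and 6 fell, among them Atf4 (-0.27), the calcineurin subunit Ppp3cb (-0.29) and the kinase Camk4 (-0.46). The same count, 1 higher and 6 lower, held at 3 h against sham, with Camk4 at -0.48; there 3.41% of all genes rose and 4.57% fell. The median over this list was -0.08 at 1 h and -0.10 at 3 h against sham, with 0 over all genes.

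Of the partners of the NR4A receptors and genes reported as their targets, 21 of 22 were tested. Within the acute run edgeR called 0 of 21, where it called at most 0.0467% of all genes. At 1 h against supplemented ADX, 2 of 21 were higher and 1 lower at an unadjusted p under 0.05. Of all genes, 14.7% were under 0.05 there in either direction. Against sham at 1 h 1 rose, Ddc, an enzyme of dopamine and serotonin synthesis. There 2 fell, the glucocorticoid receptor Nr3c1 (-0.20) and the corepressor Ncor1 (-0.14). In that comparison 5.56% of all genes rose and 7.2% fell. The PVH neuron markers, 14 genes that include Crh, had 0 called at 1 h and at 3 h against supplemented ADX by edgeR, with 2 higher and 1 lower at an unadjusted p under 0.05 at 1 h and 3 higher and 1 lower at 3 h. Against sham at 1 h 3 of 14 were called higher, Otp, Pou3f2 and Crhr2, and 2 lower, Nr3c1 and Ntng1.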

How the data were processed

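mRNA libraries (Illumina TruSeq) from the PVH region were sequenced on an Illumina HiSeq 2000, per the labels' protocols. The submitters' processing notes name the tools CASAVA (1.8.2), TopHat2 (2.1.1) and Cufflinks (2.2.1) and the build rn6. What each tool did, which annotation was used and whether strand was used are not given in the sources here, and reads of overlapping or antisense genes cannot be told apart. The raw fragments deposited per gene are expected counts, left unscaled by the authors; they were rounded where not whole (0.751% of values, 233 genes). The deposited FPKM were scaled by the authors in 2 runs, per the file headers: run A has sham, high Cort and ADX, run B supplemented ADX and both acute groups. FPKM were compared within a run only, and any comparison of a run B group with ADX or sham crosses the runs.

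The counts went into edgeR 4.0.16 (R 4.3.3). Genes were kept by filterByExpr (minimum count 10, minimum total 15) and libraries scaled by TMM. One robust quasi-likelihood fit covered all 12 libraries with a mean for each of 6 groups, because 2 libraries a group are too few for separate fits; it had 6 residual degrees of freedom. Each of 10 comparisons was tested 2-sided, with Benjamini-Hochberg adjustment over 12856 genes; adjusted p under 0.05 counts as a call. An exact permutation test of 2 against 2 libraries cannot go below 0.333. log2 CPM used a prior count of 2. The scripts were tested on simulated counts.

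Alternatives were RLE size factors, no filter, a filter at a CPM of 1 in 4 or more libraries, DESeq2 1.42.0, the 4 compared libraries alone, a replicate block, a thalamus marker score as covariate, limma-trend (version 3.58.1) within a run on log2 FPKM after adding 1 or 0.1, and leaving out each library in turn, where the lone library left is taken to vary as the other groups do. The rule for named genes was all 7 members, the 5 genes most correlated with each over the 12 libraries (mean log2 CPM of at least 1), up to 4 called genes of smallest p from each list, and a fixed set that includes Crh, Fos, Egr1, Junb and Per1. The members, lists and tests were chosen with earlier results of these data known, and the lists, written from general knowledge, support no direction independently. Promoter windows came from RefSeq (GRCr8) by gene symbol, and motifs were matched exactly on both strands.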

Additional observations from a re-analysis of the deposited data

Results flagged for a closer look

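Nr4a1 was singled out because it lay on opposite sides of the same reference at the 2 acute times: both 1 h acute libraries were above, and both 3 h acute libraries below, both supplemented ADX libraries. The contrast between 3 h and 1 h was -1.08 ± 0.16 on the log2 scale, with an edgeR adjusted p of 0.0657, so it did not pass the threshold. None of the other 6 genes met that pattern. It was not particular to Nr4a1, as the immediate early genes Fos, Egr1 and Junb, outside the members, met it too. The share of all genes that met it was not computed.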

How the results depend on the processing

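Over 70 gene and comparison pairs and 840 alternatives, 776 kept their side of the threshold (40 of them turned sign, moving by no more than the SE of the reported value), 18 lost a call, 23 gained one and 23 turned sign with a move of more than that SE and no call on either side; the cause was not tested. By setting, the number of the 7 genes called changed as follows. With the 4 compared libraries alone it was 1 for high Cort against ADX (Crtc1), 1 at 1 h and 1 at 3 h against supplemented ADX, 3 at 3 h against 1 h, 2 instead of 4 at 1 h against sham and 0 instead of 1 at 3 h against sham. With DESeq2 it was 1 at 1 h against supplemented ADX, 3 at 3 h against 1 h, 3 instead of 4 at 1 h against sham and 0 at 3 h against sham; it gave no adjusted p for 5 of the 7 in ADX and in supplemented ADX against sham, nor for 4 of the 7 at 1 h against supplemented ADX. With limma on log2 FPKM, at either pseudocount, it was 1 at 1 h against supplemented ADX and 2 at 3 h against 1 h. With the thalamus score it was 0 in both acute comparisons with sham. Leaving out each library gave 0 to 2 for high Cort against ADX, 0 to 1 for supplemented ADX against ADX, 0 to 2 at 1 h against supplemented ADX, 0 to 1 at 3 h against 1 h, 2 to 4 at 1 h against sham and 0 to 1 at 3 h against sham.

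The numbers of the replicates did not pair the libraries: the correlation of replicate differences between groups ran from -0.32 to 0.09 over 11259 genes. With the replicate block, 0 of the 7 were called at 3 h against sham (Crtc2 0.24, adjusted p 0.0564), and no other count of called members changed.

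The log2 differences that turned sign and moved by more than the SE of the reported value were these. With the thalamus score, Crem was at 0.09 for ADX against sham, -0.11 for high Cort against ADX, 0.13 for supplemented ADX against sham and 0.13 at 3 h against sham, and Nr4a2 at -0.23 at 1 h against supplemented ADX. The others turned when 1 library was left out, and their ranges over the libraries left out were as follows. For high Cort against sham, Nr4a1 ran from -0.03 (without high Cort replicate 2) to 0.28 and Crem from -0.12 to 0.14. For ADX against sham, Nr4a1 ran from -0.55 to 0.06, Nr4a2 from -0.39 to 0.56, Sik1 from -0.22 to 0.23 and Crem from -0.17 to 0.09, the first 3 between the fits without one or the other ADX library. For high Cort against ADX, Nr4a2 ran from -0.58 to 0.37, Nr4a3 from -0.32 to 0.31 and Sik1 from -0.01 to 0.44, again between the ADX libraries. For supplemented ADX against ADX, Nr4a2 ran from -0.70 to 0.25, Nr4a3 from -0.44 to 0.18 and Crtc1 from -0.10 to 0.04, and against sham Crem from -0.12 to 0.14. At 1 h against supplemented ADX, Crem ran from -0.01 (without 1 h acute replicate 1) to 0.23 and Crtc1 from -0.01 to 0.13; at 1 h against sham Crem ran from -0.01 to 0.27. Crtc1 ran from -0.01 to 0.12 at 3 h against 1 h and from -0.05 to 0.07 at 3 h against sham, lowest without 3 h acute replicate 1.

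The number of all genes called moved more than that of the members. It ran from 18 to 171 for high Cort against sham (112 as reported), 4 to 148 for ADX against sham (30), 157 to 1653 for high Cort against ADX (742), 0 to 33 for supplemented ADX against ADX (4), 0 to 64 for supplemented ADX against sham (2), 1 to 624 at 1 h against supplemented ADX (6), 0 to 154 at 3 h against supplemented ADX (1), 0 to 35 at 3 h against 1 h (3), 4 to 2125 at 1 h against sham (1641) and 5 to 1011 at 3 h against sham (1026). At 1 h against supplemented ADX, 624 genes were called without 1 h acute replicate 1 (32201860 fragments) and 1 without replicate 2 (17674159 fragments); the part of depth was not tested.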
